A study of Arabidopsis thaliana with 45 samples.

Results

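When a dry seed takes up water it begins to read its genome again within hours, and these data ask whether seeds labelled qko did so in the same way as wild type (WT) seeds of Arabidopsis thaliana. The quantity described for each locus is the imbibition response of qko (its level after 6 h in water against dry seeds) minus the imbibition response of WT, on the log2 scale. It rests on 12 of the 45 libraries of the series: 3 of dry WT seeds (replicates 5, 8 and 9), 3 of WT seeds in water (5, 8 and 9), 3 of dry qko seeds (replicates 4, 6 and 7) and 3 of qko seeds in water (4, 6 and 7). Values are given below in this order of replicates. All seeds were whole seeds of ecotype Col0, and the qko genotype is labelled as mutant in CYP79B2, CYP79B3, MYB28 and MYB29. The related genotypes labelled cyp (cyp79B2 cyp79B3) and myb (myb28 myb29) were set beside qko where a difference from them was tested. Other groups were imbibed in 10 mM KNO3 or 8 µM KSCN, and every imbibed group, like the water group, was treated for 6 h. The labels give no alleles, no seed lot and no parent plants, and nothing in them tells whether replicates are separate plants or harvests. A p therefore measures only how far these samples spread. Whole seeds hold embryo, endosperm and seed coat, and fewer cells of a type cannot be told apart from less RNA per cell.

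Dry seeds carry stored transcripts from their maturation on the mother plant. During imbibition many of these are lost while new transcripts for ribosomes, cell wall loosening and the use of reserves appear. Glucosinolates are sulfur and nitrogen rich thioglucosides of the cabbage order that seeds store in quantity and that release isothiocyanates, nitriles or thiocyanate on breakdown. MYB28 and MYB29 activate the genes of the aliphatic class, and CYP79B2 and CYP79B3 turn tryptophan into the precursor of the indolic class, so a plant without all of these genes is known to lack both classes.

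The 12 libraries held between 21363761 (qko in water, replicate 7) and 22759870 estimated counts. Replicate 7 of qko in water stood apart from its group: the standard deviation of its log2 differences over loci was 0.416 and 0.413 against replicates 4 and 6, which differed from each other by 0.168, and WT pairs lay at 0.17 to 0.226. Replicate 7 stood apart in the KNO3 and KSCN groups as well (0.391 to 0.474 against 0.171 and 0.194 for the other pairs), and not in dry seeds (0.225 to 0.24 over all pairs). The targeted genes did not check the labels. MYB28 was at 0 in all 12 libraries, MYB29 was at 0 except for 0.0429, 0.0837 and 0.134 CPM (counts scaled to library size) in qko in water, and CYP79B2 was at 0.215, 0.0711 and 0.0728 CPM in dry WT seeds and 0, 0.275 and 0 CPM in dry qko seeds. CYP79B3 was higher in qko than in WT in water (0.558, 0.921 and 1.07 against 0.207, 0.205 and 0.128 CPM, log2 2.2, edgeR adjusted p = 0.000735). For this reason "qko" below means the libraries labelled so.

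Markers of the parts of the seed were read alongside. None of the 23 tested genes of the 4 marker lists (embryo and seed, endosperm, seed coat, green tissue) was called in the difference of responses, and 1 embryo and seed gene was called lower without replicate 7 of qko in water. The summed level of the 5 endosperm markers was 16140 to 18460 CPM in dry WT seeds and 5621 to 5865 CPM in WT in water. In qko it was 33750, 17590 and 35510 CPM in dry seeds and 8814, 5318 and 10300 CPM in water. Nearly all of this level was EPR1, a proline-rich endosperm protein. Replicate 6 of qko was thus the lowest of its group in both states. The endosperm expansin gene EXPA2 was at 13.1, 20.2 and 4.38 CPM in WT in water and 87.5, 106 and 64.2 CPM in qko in water. MAN7 had group means of 6.03 and 7.86 CPM in dry WT and qko seeds and 19.6 and 48.4 CPM in water. CYP707A2 went the other way, with 44.5 CPM in dry WT and 12.8 CPM in dry qko seeds, and 143 and 46.4 CPM in water. ZOU was under 1 CPM in every group mean. Of the 6 green tissue markers RBCS1A was the highest, at group means of 33.7 CPM in dry WT seeds, 30.5 CPM in dry qko seeds, 13.8 CPM in WT in water and 13.0 CPM in qko in water. LHCB1.3 was at 3.46 CPM in dry WT and 0.467 CPM in dry qko seeds, LHCA1 was at 2.65 and 1.11 CPM there, and the other members were under 1 CPM in every group mean. The seed coat list summed to 9.87 to 25.0 CPM, with TT10 and TT8 at or near 0. The 14 storage and oil body genes took 22.1% to 24.1% of all counts in dry WT seeds and 15% to 16.5% in dry qko seeds. In water they took 12.1% to 12.3% in WT and 4.89% to 6.24% in qko. These are shares of counts before TMM scaling, unlike the CPM above. The part of these shifts in the results below was not tested.

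Of 18066 tested loci, 5013 (27.7%) had a different imbibition response in qko (edgeR's quasi-likelihood test, Benjamini-Hochberg adjusted p under 0.05, n = 3 libraries per group). The response was higher in qko at 2553 loci, 14.1% of those tested, and lower at 2460, 13.6%. These shares are the background against which the gene groups are read below. Each response alone was broad, with 70.6% of loci called between dry seeds and water in WT and 69.0% in qko. The median difference over all tested loci was -0.00387. The difference exceeded 1 on the log2 scale, in either direction, at 1859 of the called loci (37.1%) and exceeded 2 at 499 (9.95%). Without replicate 7 of qko in water 4836 loci were called, among them 4206 of the 5013 (83.9%), and all 5013 kept their sign. The 5013 were picked with replicate 7 included and the fits share the other libraries, so a kept sign says little about that library.

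**Figure D1:**
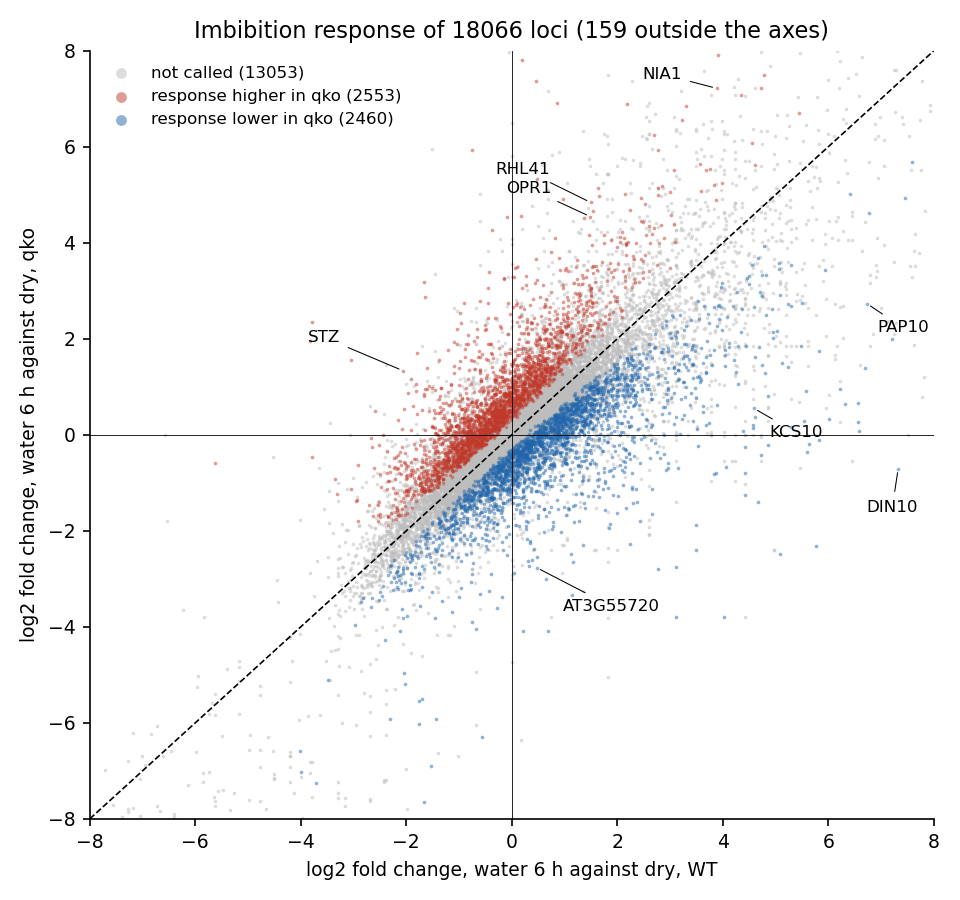
Log2 fold change from dry seeds to water at 6 h in WT (horizontal axis) and qko (vertical axis), 1 point per tested locus. Red points are the 2553 loci whose response was higher in qko and blue points the 2460 loci whose response was lower; the dashed line marks equal responses, and 159 loci lie outside the axes.

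The differing loci fell into several classes of response. At 2259 of the 5013 loci (45.1%) both responses were called in the same direction, with the larger change in qko at 1141 and the smaller at 1118. At 1190 loci (23.7%) the response was called in WT and not in qko, and at 1093 (21.8%) in qko and not in WT. At 437 loci (8.72%) the responses were called in opposite directions, 196 of them higher in WT and lower in qko and 241 the reverse. All these classes rest on the calls of each response alone, which depend on the scaling. Over all tested loci the WT response was called higher at 6710 and lower at 6047, and at 11609 and 2460 under total-count scaling. For the qko response the counts were 6663 and 5811, and 11605 and 2574. Only the class of opposite responses was counted again under another scaling. Scaling to total counts moved the median WT response over all loci from 0.0835 to 0.833 and the median qko response from 0.0874 to 0.812, and the median difference only to -0.029. It left 4912 differing loci, of which 317 (6.45%) had opposite responses, 163 higher in WT and lower in qko and 154 the reverse.

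A differing response can come from where the seeds began or from where they ended. qko and WT differed at 49.0% of all tested loci in dry seeds and at 50.7% in water. Of the 18066 loci, qko was higher at 4590 and lower at 4254 in dry seeds, and higher at 4663 and lower at 4500 in water. Counts of list members in each state are read against these. Of the 5013 loci with a differing response, 1768 (35.3%) differed between the genotypes in dry seeds and were not called in water. Another 1514 (30.2%) were called in water and not in dry seeds. At 1015 loci (20.2%) qko was on the same side of WT in both states, and at 610 (12.2%) it changed sides. The gene groups below are therefore given with both states.

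**Figure D2:**
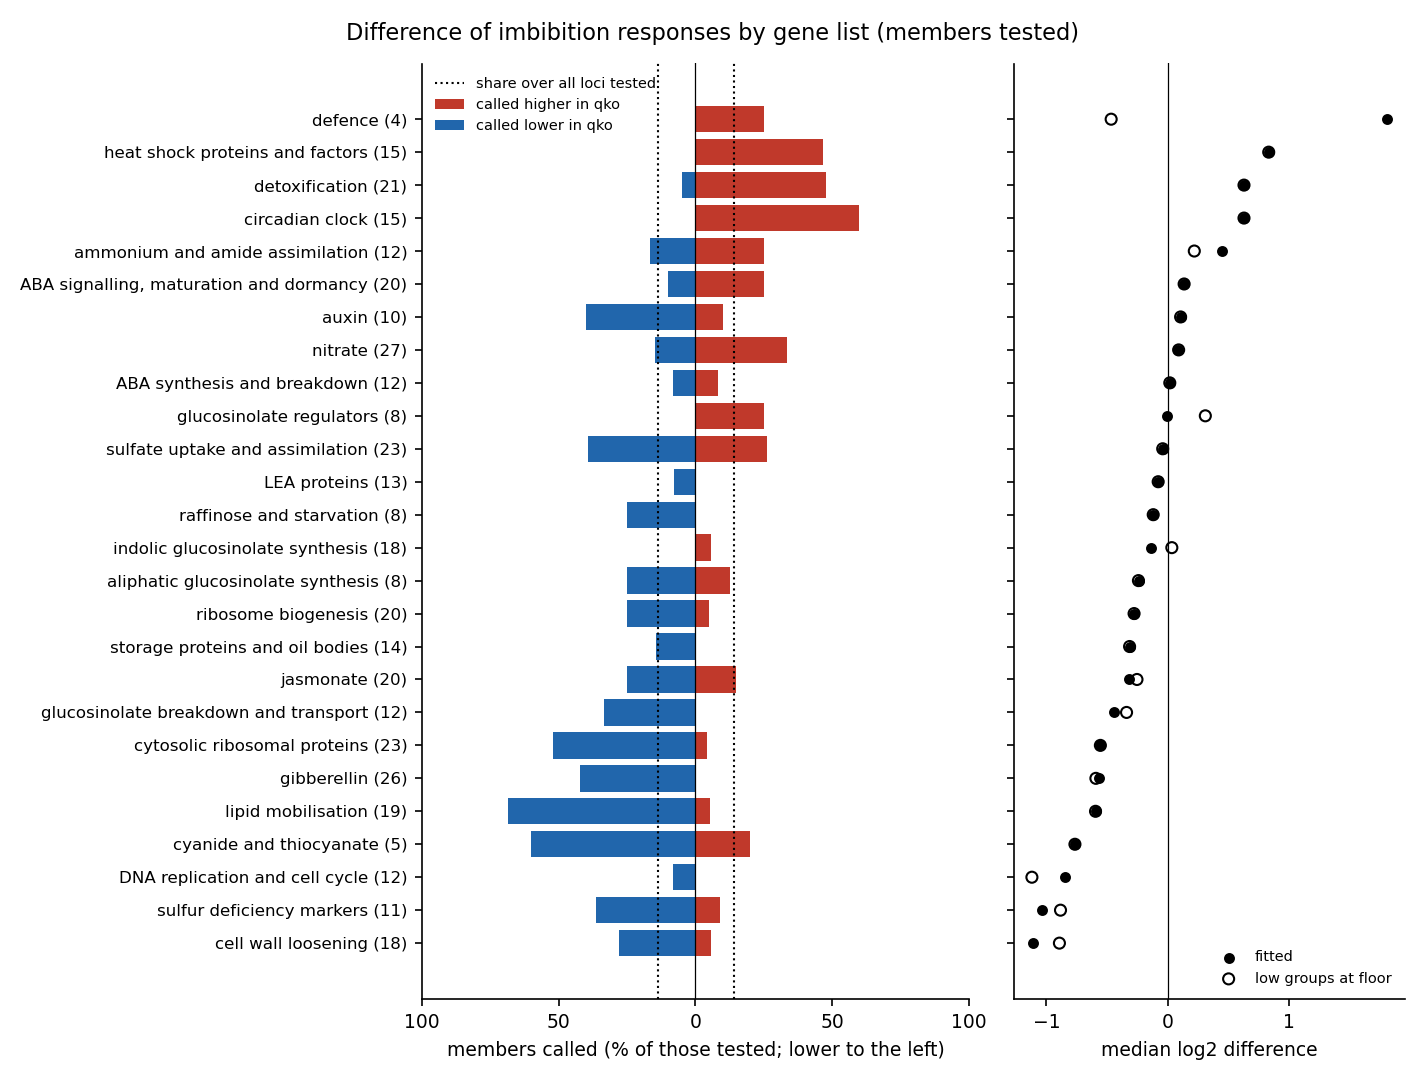
Left, share of the tested members of each gene list whose imbibition response was called higher (red, to the right) or lower (blue, to the left) in qko than in WT, in percent; dotted lines mark the shares over all tested loci, 14.1% and 13.6%. Right, median log2 difference of each list (qko minus WT) as fitted (filled) and with group means raised to a floor of 3 counts per library (open). Clock, detoxification and heat shock lists lie to the right, and lipid, gibberellin, ribosomal and cell wall lists to the left.

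Without replicate 7 of qko in water the higher and lower counts became 6 and 0 for heat shock, 9 and 1 for detoxification and for the clock, 3 and 1 for ammonium, 6 and 8 for sulfate, 1 and 6 for sulfur deficiency, 1 and 14 for ribosomal proteins, 1 and 3 for ribosome biogenesis and 1 and 10 for lipid mobilisation. They became 0 and 5 for storage proteins, 0 and 0 for LEA proteins, 1 and 2 for ABA synthesis and for raffinose, 1 and 1 for aliphatic synthesis, 0 and 2 for glucosinolate breakdown and 2 and 5 for jasmonate, and did not move for the rest of the 26 lists. Medians of lists with genes under 3 counts per library in a group are uncertain. With those groups raised to that floor the median changed sign for defence (1.81 to -0.466), indolic synthesis (-0.134 to 0.0346) and glucosinolate regulators (-0.00929 to 0.311).

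Genes of detoxification, whose products conjugate, oxidise or export reactive compounds, mostly had a higher response in qko where they differed. Of its 21 tested genes, 10 were higher and 1 was lower, with a median log2 difference of 0.63, against 14.1% and 13.6% and a median near 0 over all loci. OPR1, a reductase of reactive carbonyl compounds, was at 2.5, 2.77 and 2.04 CPM in dry WT seeds, 5.60, 6.78 and 8.21 CPM in WT in water, 5.73, 3.37 and 4.69 CPM in dry qko seeds and 109.5, 96.9 and 115 CPM in qko in water. Every qko library in water lay above all others. OPR1 rose 2.81-fold in WT and 23.3-fold in qko (log2 difference 3.06 ± 0.40, edgeR adjusted p = 4.86e-07). Its near copy OPR2 reached 9.48, 8.29 and 9.86 CPM in qko in water and stayed under 1 CPM in the other 9 libraries, and the split of reads between the copies is uncertain.

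CYP81D8, a cytochrome P450 induced by many xenobiotics, went from 77.9, 69.0 and 68.7 to 25.4, 22.7 and 27.1 CPM in WT and from 91.7, 79.2 and 89.2 to 186, 181 and 148 CPM in qko. Every qko library lay above every WT library in both states, and the gap was wider in water (log2 difference 2.5 ± 0.30, edgeR adjusted p = 7.51e-08). The glutathione transferase genes GSTU7 and GSTU2 rose further in qko too. From 58.5 to 70.8 CPM in dry WT and 51.1 to 57.5 CPM in dry qko seeds, GSTU7 reached 77.0 to 98.0 and 248 to 281 CPM in water (log2 difference 1.95 ± 0.20, edgeR adjusted p = 4.43e-09), and GSTU2 was at 1.16 to 2.3 and 9.13 to 15.8 CPM in water (log2 difference 2.42 ± 0.51, edgeR adjusted p = 0.000451). UGT73B4 was the list's lower member. This glucosyltransferase gene already stood at 7.38 to 9.27 CPM in dry qko seeds against 0.437 to 0.501 CPM in WT, and it reached 100.9 to 123 CPM in qko in water against 11.1 to 13.3 CPM in WT (log2 difference -0.98 ± 0.30, edgeR adjusted p = 0.0127). UGT73B3, UGT73B4 and UGT73B5 are near copies, so reads may be split between them.

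The glucosyltransferase genes GT72B1 and UGT73B3 were among the 10 highest differences within the limits for naming. These limits were 3 counts per library in every group mean and 5 CPM in the highest group mean. A call without replicate 7 of qko in water was required too, so larger differences outside the limits are not among the 10. GT72B1, which glucosylates phenolic pollutants and lignin precursors, fell from 4.43, 3.84 and 4.01 to 1.12, 0.658 and 1.74 CPM in WT. In qko it rose from 9.28, 9.27 and 7.04 to 33.2, 24.3 and 26.4 CPM (log2 difference 3.52 ± 0.33, edgeR adjusted p = 5.09e-10). UGT73B3 was under 1 CPM in all dry libraries, at 0.912, 0.863 and 0.936 CPM in WT in water and at 16, 18.1 and 13.2 CPM in qko in water (log2 difference 3.5 ± 0.76, edgeR adjusted p = 0.000573). Both genes were thus highest in the 3 qko libraries in water, with no overlap with any other group. The uncharacterised loci AT4G08555, AT1G19397 and AT4G39675 belonged to these 10 as well. AT4G08555 was under 1 CPM in all other groups and at 7.25, 6.61 and 7.85 CPM in qko in water (log2 difference 4.38 ± 0.74, edgeR adjusted p = 2.79e-05). AT1G19397 differed mainly in dry seeds, at 10.2 to 13.6 CPM in WT and 1.1 to 2.03 CPM in qko, and AT4G39675 reached 4.29, 3.93 and 8.48 CPM in qko in water, where replicate 7 was the highest.

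The transcription factor genes WRKY11, STZ and RHL41 were also among the 10 highest differences within the limits for naming. WRKY11, a negative regulator of basal defence, was at 6.01, 5.75 and 5.54 CPM in WT seeds when dry, 3.77, 4.36 and 4.47 in WT in water, 3.62, 3.78 and 4.14 in dry qko seeds and 29.3, 33.8 and 32.5 in qko in water. It rose 8.27-fold in qko (log2 difference 3.51 ± 0.18, edgeR adjusted p = 1.55e-16), and its WT response was -0.46 on the log2 scale here and 0.29 under total-count scaling. STZ, a zinc finger repressor induced by salt and cold, fell in WT from 47.8, 48.5 and 48.5 to 10.9, 11.2 and 12.5 CPM and rose in qko from 30.5, 32.4 and 31.4 to 69.3, 80.3 and 88.7 CPM (log2 difference 3.40 ± 0.19, edgeR adjusted p = 2.09e-15). These directions were opposite under both scalings. RHL41, a zinc finger protein of light and oxidative stress responses, rose 2.81-fold in WT, to 14.2, 13.4 and 17.9 CPM, and 28.7-fold in qko, to 117, 127 and 165 CPM (log2 difference 3.35 ± 0.35, edgeR adjusted p = 7.08e-09). WRKY33, the activator of camalexin synthesis, was at 5.71 to 6.12 CPM in WT in water and 35.5 to 38.4 CPM in qko in water (log2 difference 1.79 ± 0.30, edgeR adjusted p = 1.88e-05). It was the only called gene among the 4 tested genes of the defence list, 3 of which had a group under 3 counts per library.

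**Figure D3:**
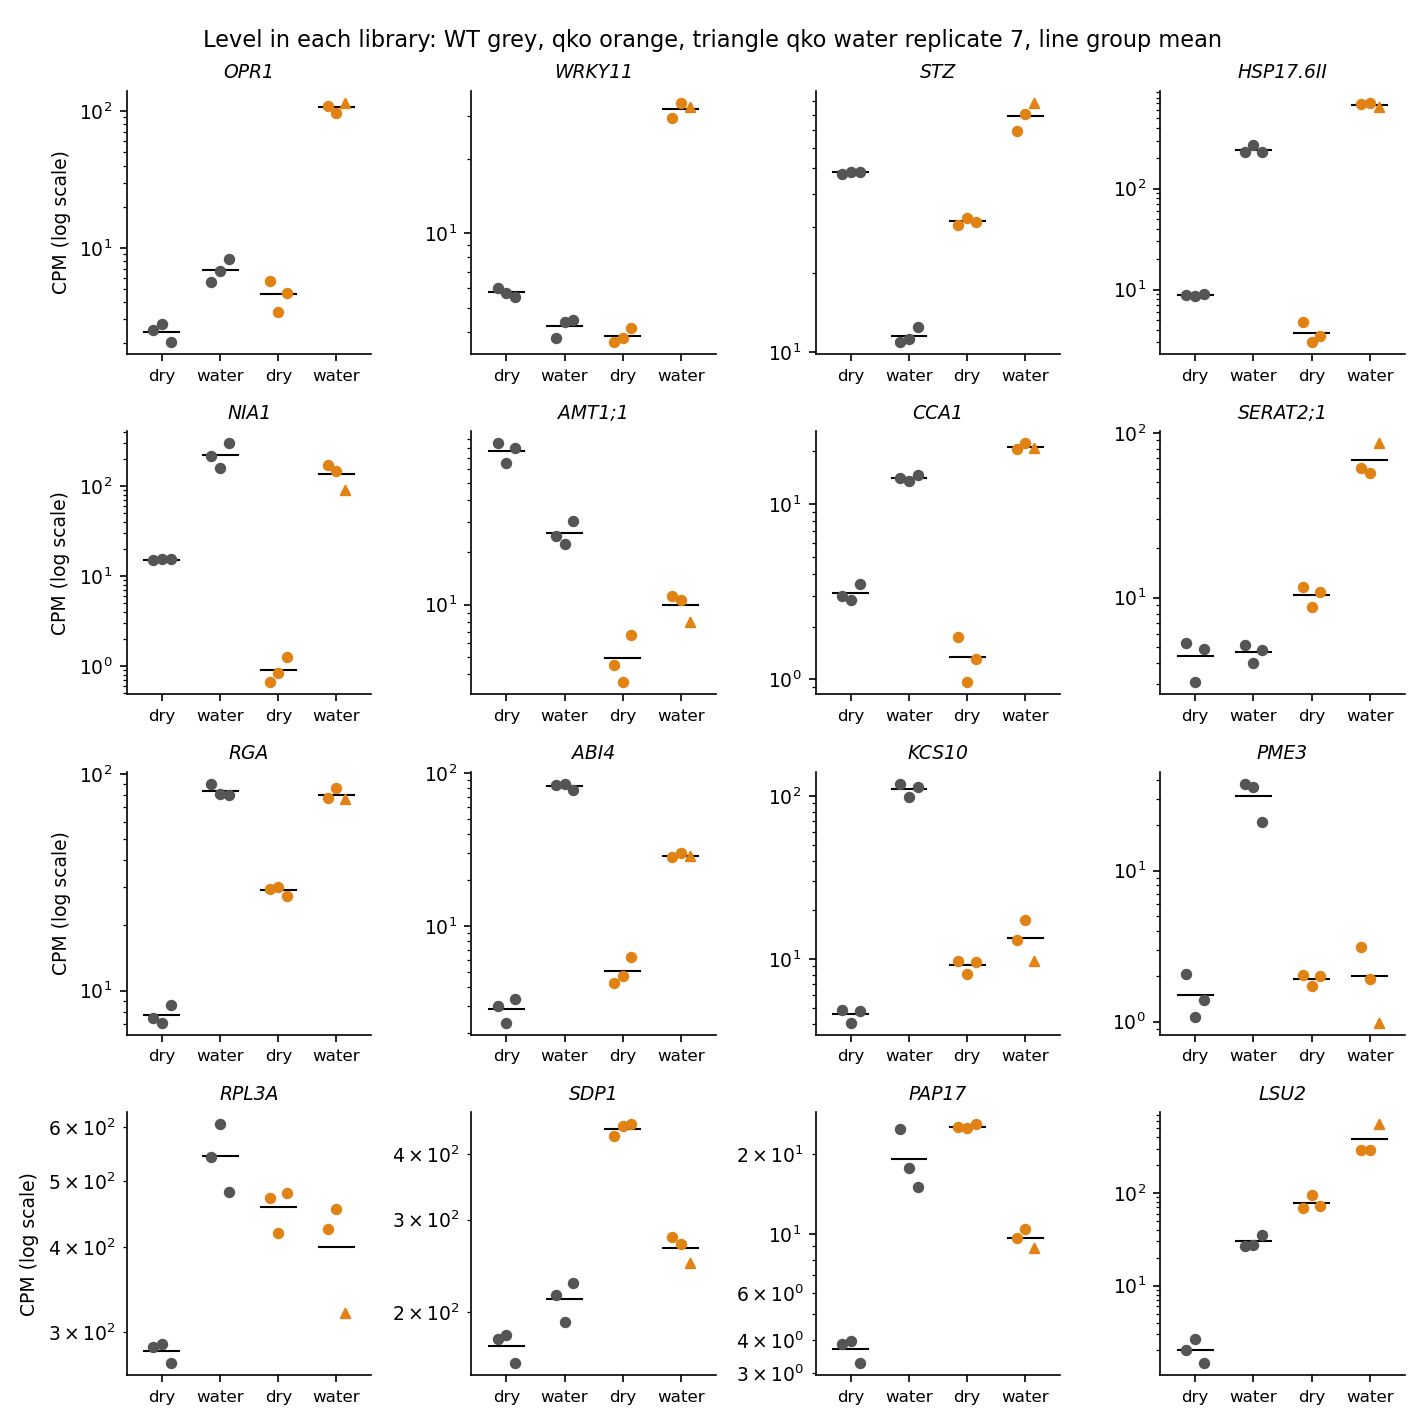
Level of 16 genes in each of the 12 libraries, in CPM on a log scale, for WT (grey) and qko (orange) in dry seeds and in water; lines are group means and the triangle is replicate 7 of qko in water. OPR1, WRKY11 and SERAT2;1 are highest in the 3 qko libraries in water, the genotypes overlap in water for NIA1 and RGA, and for PAP17 and STZ qko lies on opposite sides of WT in dry seeds and in water.

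Among heat shock genes, whose products keep other proteins from aggregating or control such genes, those that differed had a higher response in qko. Of 15 tested genes, 7 were higher, none was lower and 8 were not called, with a median of 0.83. The small heat shock protein gene HSP17.6II rose from 8.80, 8.60 and 9.11 to 232, 270.3 and 229.7 CPM in WT and from 4.79, 3.02 and 3.45 to 693, 708 and 640.1 CPM in qko. qko lay below every WT library in dry seeds and above every WT library in water (log2 difference 2.72 ± 0.38, edgeR adjusted p = 1.3e-06). HSP101, the disaggregase of heat tolerance, and the chaperone gene HSP90.1 began lower in dry qko seeds and passed WT in 2 of 3 libraries in water. HSP101 was at 1372, 1281 and 1549 CPM in WT in water and 2519.7, 2136 and 1295 CPM in qko in water (log2 difference 1.47 ± 0.39, edgeR adjusted p = 0.0039). HSP90.1 was at 1850.5, 1696 and 2270.5 and 4272, 3841 and 1971 CPM (log2 difference 1.53 ± 0.44, edgeR adjusted p = 0.0079), and replicate 7 was the low qko library for both. The calls of HSP17.6A (lost without WT dry replicate 9 and without qko in water replicate 7) and of ATHSP22.0 (lost under 4 settings) were less firm.

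Of the 26 lists, the one with the largest share of higher responses was the circadian clock, the feedback loop that times transcription to the day. Of 15 tested genes, 9 were higher and none was lower, with a median of 0.63. The morning genes CCA1 and LHY, which encode related MYB repressors, rose in both genotypes. CCA1 went from 3.0, 2.84 and 3.5 to 14, 13.5 and 14.6 CPM in WT and from 1.74, 0.961 and 1.31 to 20.6, 22.1 and 20.9 CPM in qko (log2 difference 1.82 ± 0.33, edgeR adjusted p = 6.99e-05). LHY reached 4.11 to 7.57 CPM in WT and 11.5 to 12.6 CPM in qko in water, from 1.93 to 3.20 and 0.897 to 1.24 CPM (log2 difference 2.34 ± 0.33, edgeR adjusted p = 1.39e-06). Both genes were lower in dry qko seeds than in any dry WT library and higher in water.

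RVE1, a CCA1 relative that acts in auxin control and in dormancy, fell in WT from 14.4, 12.8 and 15.2 to 5.06, 5.26 and 6.93 CPM. In qko it moved from 3.99, 3.43 and 2.90 to 5.79, 4.81 and 4.28 CPM, so that the genotypes differed in dry seeds and overlapped in water (log2 difference 1.83 ± 0.28, edgeR adjusted p = 4.88e-06). GI, a regulator of clock and flowering, had a WT response of -0.81 on the log2 scale, or -0.05 under total-count scaling, and its level in qko was 44.6 to 52.7 CPM in dry seeds and 48.5 to 66.0 CPM in water (log2 difference 1.05 ± 0.21, edgeR adjusted p = 0.000262). In dry seeds 10 of the 15 clock genes were lower in qko and 1 was higher. In water 6 were higher and 3 lower. Over all tested loci 49.0% were called in dry seeds and 50.7% in water, about evenly in both directions. The call of TOC1 was lost under 13 of 18 alternatives.

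Nitrate genes differed in both directions. Of 27 tested genes of nitrate uptake, sensing and reduction, 9 had a higher response in qko and 4 a lower one. In dry seeds 10 were lower in qko than in WT and 5 higher, and in water 9 were lower and 6 higher. These counts lie near the shares over all tested loci, 49.0% called in dry seeds and 50.7% in water. NIA1, a nitrate reductase, was at 14.9, 15.3 and 15.5 CPM in dry WT seeds and 0.653, 0.824 and 1.24 CPM in dry qko seeds. In water it was at 214, 159.9 and 299.8 CPM in WT and 172, 146 and 90.3 CPM in qko. The dry groups were far apart, and the groups in water overlapped, with replicate 7 the lowest of qko. NIA1 rose 14.8-fold in WT and 149-fold in qko (log2 difference 3.33 ± 0.60, edgeR adjusted p = 6.4e-05). The other nitrate reductase, NIA2, was at 6.04 to 7.73 CPM in dry WT seeds and 0 to 0.0725 CPM in dry qko seeds, and at 48.0 to 84.2 and 3.08 to 9.39 CPM in water, so qko stayed below WT in both states.

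NIR1, nitrite reductase, followed the same course. Its levels were 178 to 207 CPM in dry WT and 23.9 to 29.3 CPM in dry qko seeds, and 448 to 683 against 139 to 316 CPM in water (log2 difference 1.66 ± 0.43, edgeR adjusted p = 0.00361). NLP8, the nitrate sensor known to promote germination, was at 192, 184 and 179 CPM in dry WT seeds and 72.9, 71.8 and 73.6 CPM in dry qko seeds. In water its levels overlapped, at 164, 146 and 194 CPM in WT and 209, 191 and 154 CPM in qko (log2 difference 1.48 ± 0.21, edgeR adjusted p = 1.64e-06). NLP8 rose 2.54-fold in qko. Its WT response was -0.14 on the log2 scale and not called here, and it was called under total-count scaling (log2 0.62, edgeR adjusted p = 0.00024). Among the lower responses, LBD39, a repressor of nitrate genes, rose in WT to 11.6 to 13.6 CPM and was at 1.55 to 2.68 CPM in qko in water (log2 difference -1.5 ± 0.45, edgeR adjusted p = 0.0106), and RFNR1, the ferredoxin reductase of root plastids, also had a lower response (log2 difference -1.61 ± 0.15, edgeR adjusted p = 8.67e-10). The call of CIPK23 was lost under 10 alternatives and that of NIA2 under 4.

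In ammonium and amide assimilation 3 of 12 tested genes were higher and 2 lower. The ammonium transporter gene AMT1;1 was at 84.8, 65.5 and 79.8 CPM in dry WT seeds and fell to 24.8, 22.4 and 30.4 CPM in water. It was at 4.50, 3.57 and 6.69 CPM in dry qko seeds and rose to 11.2, 10.6 and 7.99 CPM (log2 difference 2.58 ± 0.29, edgeR adjusted p = 3.02e-08). WT stayed above qko in both states. GLT1 and GDH2, enzymes of glutamate turnover, rose in both genotypes and further in qko. GLT1 rose 1.41-fold in WT and 2.93-fold in qko (log2 difference 1.06 ± 0.30, edgeR adjusted p = 0.00717). GDH2 was at 80.5 to 119 CPM in WT in water and 959 to 1061 CPM in qko, above WT in dry seeds already (log2 difference 0.90 ± 0.29, edgeR adjusted p = 0.02). The lower members were GLN1;3 and ASN1, and the call of ASN1 was lost under 7 alternatives.

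**Figure D4:**
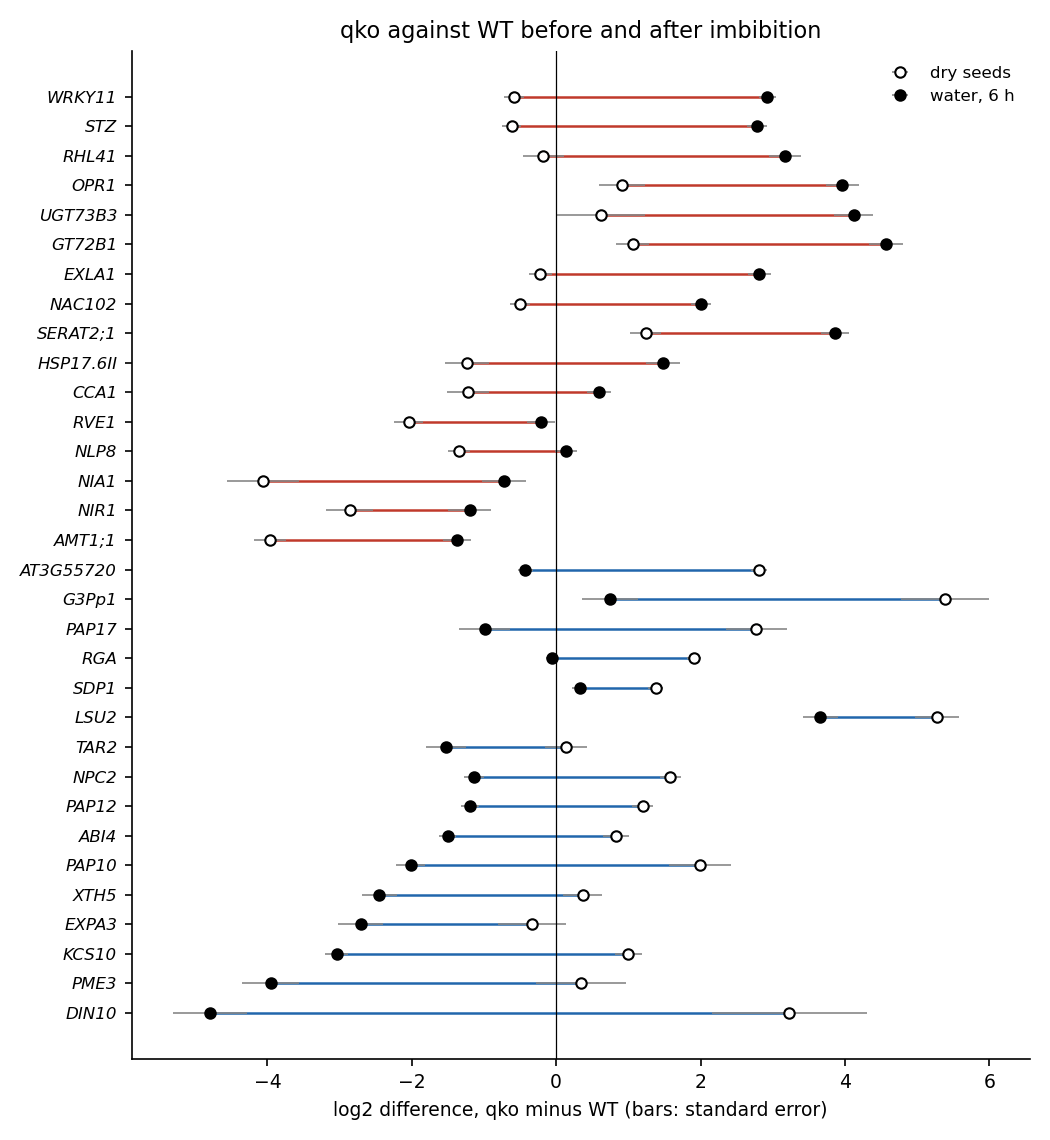
Log2 difference between qko and WT for 32 genes in dry seeds (open points) and after 6 h in water (filled points), with standard errors as bars; red lines join genes whose response was higher in qko and blue lines those whose response was lower. NIA1, NIR1 and AMT1;1 start far below WT and approach it, LSU2 stays above WT, and DIN10 and KCS10 move from above to below.

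Sulfate uptake and assimilation was the list with both many higher and many lower members: of 23 tested genes 6 were higher and 9 lower. The higher ones were enzymes of the pathway, and so were several of the lower ones. SERAT2;1, which makes the precursor of cysteine, was at 5.29, 3.06 and 4.88 CPM in WT seeds when dry, 5.18, 3.99 and 4.81 in WT in water, 11.7, 8.79 and 10.8 in dry qko seeds and 60.9, 56.9 and 86.3 in qko in water (log2 difference 2.63 ± 0.29, edgeR adjusted p = 1.58e-08). qko was above WT in both states, and the gap widened. The ATP sulfurylase genes APS1 and APS3, which open the pathway, began low in qko. APS3 rose 1.47-fold in WT and 5.53-fold in qko (log2 difference 1.91 ± 0.22, edgeR adjusted p = 3.01e-08). APS1 was at 331 to 369 CPM in dry WT seeds and 62.6 to 74.1 CPM in dry qko seeds, and at 232 to 281 and 113 to 148 CPM in water (log2 difference 1.32 ± 0.20, edgeR adjusted p = 4.25e-06). The APS kinase genes APK1, APK3 and APK4, which activate sulfate for sulfation, were the other higher members.

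Lower members included both transporters and enzymes. Under total-count scaling, with 9 lower members as well, the enzyme genes APS2 (log2 difference -0.66), OASA1 (-0.40), OASB (-0.54) and GSH2 (-0.93) were among them. The transporter genes SULTR2;2 and SULTR4;1 were higher in dry qko seeds than in dry WT seeds. The sulfate transporter gene SULTR2;2 was at 0.0711 to 0.219 CPM in dry WT and 56.4 to 65.0 CPM in dry qko seeds, and in water at 0.128 to 0.288 and 19.7 to 21.6 CPM. SULTR4;1, a vacuolar exporter of sulfate, rose in both genotypes, from 0.429, 0.284 and 0.364 to 2.82, 2.71 and 3.02 CPM in WT and from 5.95, 7.35 and 8.41 to 18, 20.2 and 18.5 CPM in qko (log2 difference -1.58 ± 0.33, edgeR adjusted p = 0.000338). APR1, a gene of the reductase step thought to set the pace of the pathway, rose 4.54-fold in WT and 2.07-fold in qko from a higher start (log2 difference -1.13 ± 0.30, edgeR adjusted p = 0.00436). APR2 and APR3 of the same step were not called under total-count scaling (log2 difference 0.35, edgeR adjusted p = 0.287, and 0.05, edgeR adjusted p = 0.888). APK2 was called lower, but it was at 0 CPM in dry WT seeds and 0.290, 1.85 and 0.0690 CPM in dry qko seeds and neighbours CYP79B2 in the reference annotation.

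Markers of sulfur deficiency stood far above WT in qko before and after imbibition. Of 11 tested genes, 10 were higher in dry qko seeds, with a median log2 of 5.02, and 11 were higher in water, with a median of 3.80. Their response was called lower at 4 genes and higher at 1, with a median of -1.04 as fitted and -0.884 with low groups raised to the floor. LSU2, a small protein induced by low sulfur, was at 2.0, 2.63 and 1.46 CPM in dry WT seeds and 27.1, 27.6 and 35.5 CPM in WT in water. In qko it was at 68.4, 95.2 and 73.1 and 292, 289 and 555 CPM, with replicate 7 the highest. It rose in both genotypes, 14.8-fold and 4.80-fold (log2 difference -1.62 ± 0.38, edgeR adjusted p = 0.00154). AT1G04770, a tetratricopeptide protein of the same list, rose from 10.5, 11.7 and 9.11 to 124, 128 and 124 CPM in WT and from 63.4, 68.6 and 71.1 to 226, 216 and 270.1 CPM in qko (log2 difference -1.78 ± 0.21, edgeR adjusted p = 4.98e-08).

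The glucosidase gene BGLU28, thought to recycle sulfur from glucosinolates, was at 0.215, 0.711 and 0.146 CPM in dry WT and 438, 516 and 391.9 CPM in dry qko seeds. Its response was not called as different (log2 difference -1.64 ± 0.80, edgeR adjusted p = 0.126), nor was that of LSU1 or SDI1. The count of called members was 3 without WT dry replicate 9, and 8 when only the compared groups were fitted.

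Gibberellin genes, which carry the hormone signal that starts germination, had no higher member: of 26 tested, 11 were lower and none was higher, with a median of -0.56. These 11 include repressors of the pathway and its receptors alike. The DELLA repressor gene RGA was at 7.44, 7.11 and 8.60 CPM in dry WT seeds and 29.4, 30.1 and 27.4 CPM in dry qko seeds. In water the genotypes overlapped, at 90.0, 80.6 and 79.4 and 77.3, 85.9 and 76.1 CPM. RGA rose 10.8-fold in WT and 2.75-fold in qko (log2 difference -1.97 ± 0.12, edgeR adjusted p = 1.45e-14). Another DELLA gene, GAI, had overlapping levels in dry seeds and reached 81.8 to 86.1 CPM in WT and 42.2 to 54.3 CPM in qko in water (log2 difference -1.08 ± 0.16, edgeR adjusted p = 2.2e-06).

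The DELLA gene RGL1 was at 0.0711 to 0.0728 CPM in WT seeds when dry, 1.15 to 3.21 in WT in water, 0.290 to 0.483 in dry qko seeds and 0.759 to 1.0 in qko in water. The receptor gene GID1A fell in both genotypes, from 187, 223 and 175 to 71, 70.2 and 77.6 CPM in WT and from 368, 359 and 359 to 73.8, 70.3 and 59.9 CPM in qko (log2 difference -0.99 ± 0.15, edgeR adjusted p = 7.8e-06). GA2, which encodes the kaurene synthase of gibberellin synthesis, fell 2.59-fold in WT and 7.29-fold in qko (log2 difference -1.49 ± 0.25, edgeR adjusted p = 2.67e-05). In water 13 of the 26 genes were lower in qko than in WT and 3 were higher, while in dry seeds 2 were lower and 7 higher.

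Abscisic acid (ABA) holds seeds dormant. Of 20 tested genes of its signalling and of dormancy, 5 were higher and 2 lower, and of 12 genes of its synthesis and breakdown 1 was each. ABI4, a transcription factor of ABA and sugar signalling, rose in WT from 3.0, 2.35 and 3.35 to 84.2, 85.4 and 77.2 CPM. In qko it rose from 4.28, 4.74 and 6.34 to 28.3, 30.00 and 28.7 CPM. The groups in water did not overlap, with WT above qko (log2 difference -2.33 ± 0.21, edgeR adjusted p = 4.27e-10). The ABA receptor gene PYL1 reached 3.36 to 3.98 CPM in WT and 2.51 to 2.72 CPM in qko in water, from less than 1 CPM in dry seeds.

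All 5 higher members of the signalling list encode protein phosphatases that restrain ABA signalling (HAI3, HAI2, AHG3, ABI2 and HAB1). HAI3 rose 2.1-fold in WT and 6.99-fold in qko, to 151, 149.7 and 203 CPM (log2 difference 1.73 ± 0.26, edgeR adjusted p = 3.26e-06). HAI2 was at 32.9 to 37.8 CPM in WT in water and 49.2 to 57.0 CPM in qko in water (log2 difference 0.72 ± 0.15, edgeR adjusted p = 0.000495). The call of ABI2 was lost under 12 alternatives. NCED9, an enzyme of ABA synthesis in seeds, rose to 5.95 to 6.58 CPM in WT and 16.7 to 20.3 CPM in qko (log2 difference 0.67 ± 0.16, edgeR adjusted p = 0.00155). CYP707A3, which breaks ABA down, was at 0.0715 to 0.146 and 3.61 to 4.76 CPM in WT and at 2.40 to 3.04 and 29 to 31.1 CPM in qko, so qko was the higher in both states. Without WT dry replicate 5, 1 gene of the synthesis list was called in place of 2. The dormancy gene DOG1 fell in both genotypes, and its response was not called as different (log2 difference 0.38 ± 0.23, edgeR adjusted p = 0.232).

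Cell wall loosening lets the embryo expand and the endosperm give way. Of 18 tested genes 1 was higher and 5 were lower, with a median of -1.11 as fitted and -0.893 with the 8 genes that had a low group raised to the floor. Without qko dry replicate 4 the fitted median was -0.381. EXPA10, an expansin, rose from under 1 CPM in dry seeds of both genotypes to 189, 171 and 151 CPM in WT and 51, 46.4 and 36.4 CPM in qko (log2 difference -1.90 ± 0.44, edgeR adjusted p = 0.00133). Another expansin gene, EXPA3, reached 42.2, 41.8 and 29.4 and 6.39, 6.11 and 4.82 CPM (log2 difference -2.37 ± 0.57, edgeR adjusted p = 0.00176). In both cases every WT library in water lay above every qko library. The endosperm expansin gene EXPA2, also of this list, went the other way in water and was not called. Its group means there were 12.6 CPM in WT and 85.8 CPM in qko. XTH5, which cuts and rejoins xyloglucan, rose 4.24-fold in WT, to 14.6 to 19.9 CPM, and was at 4.13 to 5.97 CPM in dry qko seeds and 2.83 to 3.72 CPM in water (log2 difference -2.81 ± 0.36, edgeR adjusted p = 3.23e-07). MAN2, a mannanase, was the higher member, at 0.0725 to 0.207 CPM in dry qko seeds and 1.03 to 1.59 CPM in water. Its call was lost under 3 alternatives.

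Genes outside this list that act on the wall or the cuticle were among the lowest differences named. PME3, a pectin methylesterase, was at 2.08, 1.07 and 1.38 CPM in dry WT seeds and 37.6, 35.7 and 20.9 CPM in WT in water. It was at 2.03, 1.72 and 2.0 and 3.13, 1.93 and 0.982 CPM in qko, where no change was called (log2 difference -4.30 ± 0.75, edgeR adjusted p = 4.22e-05). BXL2, a beta-xylosidase, rose 11.6-fold in WT, to 9.31 to 17.1 CPM, and was at 0.446 to 0.901 CPM in qko in water (log2 difference -3.77 ± 1.04, edgeR adjusted p = 0.00625). KCS10, which elongates fatty acids for cuticle and is needed to keep organs from fusing, rose 24.1-fold in WT, from 4.87, 4.05 and 4.81 to 119, 99.0 and 113 CPM. In qko it went from 9.72, 8.10 and 9.59 to 13, 17.41 and 9.68 CPM (log2 difference -4.04 ± 0.24, edgeR adjusted p = 6.61e-15). AT4G28570, annotated as a long-chain fatty alcohol dehydrogenase, was at 0.947 to 1.36 CPM in dry WT and 5.37 to 6.46 CPM in dry qko seeds, and at 6.55 to 8.67 CPM in WT and 3.65 to 4.64 CPM in qko in water (log2 difference -3.29 ± 0.33, edgeR adjusted p = 2.96e-09). FAR1, which reduces fatty acyl groups to alcohols, was at 9.16, 5.47 and 9.70 CPM in WT in water and under 1 CPM in the other 9 libraries.

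Ribosomal protein genes rose during imbibition in WT, and 12 of the 23 tested had a lower response in qko. All 23 tested genes of the cytosolic ribosomal list were called higher in water than in dry seeds in WT, with a median log2 of 0.95, and 11 were in qko, with a median of 0.37. Under total-count scaling all 23 were called higher in both genotypes. Besides the 12 lower differences 1 was called higher and 10 were not called, with a median of -0.56. RPL3A went from 286, 288 and 270.4 to 542, 606 and 482 CPM in WT. In qko its levels were 472, 420.0 and 481 CPM in dry seeds and 426, 456 and 321 CPM in water, with replicate 7 the lowest (log2 difference -1.14 ± 0.24, edgeR adjusted p = 0.000478). The genotypes did not overlap in either state, qko being higher in dry seeds and lower in water. RPL23AB rose 3.73-fold in WT and 1.72-fold in qko (log2 difference -1.12 ± 0.25, edgeR adjusted p = 0.000859). RPL10C was the exception, reaching 292 to 306 CPM in WT and 769 to 1080.5 CPM in qko in water (log2 difference 1.15 ± 0.18, edgeR adjusted p = 7.8e-06). Ribosomal proteins have near-identical copies, so the level of a single gene is uncertain.

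Among genes of ribosome assembly 5 of 20 tested were lower and 1 was higher, with a median of -0.28. Without qko dry replicate 4, 3 genes were called. The nucleolin gene NUC2 rose 6.57-fold in WT and 3.54-fold in qko from a higher start (log2 difference -0.89 ± 0.24, edgeR adjusted p = 0.00446). AT1G52930, a Brix domain protein of ribosomal RNA processing, rose 2.95-fold and 1.41-fold (log2 difference -1.06 ± 0.19, edgeR adjusted p = 5.68e-05). In water 15 of the 20 genes were lower in qko than in WT. Of 12 tested genes of DNA replication and the cell cycle, 8 of which had a group under 3 counts per library, MCM4 alone was called. This subunit of the replicative helicase was at 6.30, 5.18 and 2.89 CPM in WT in water and 1.97, 2.26 and 1.43 CPM in qko (log2 difference -1.72 ± 0.44, edgeR adjusted p = 0.00341).

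Lipid mobilisation, the route from seed oil to sugar, had the largest share of lower responses of the 26 lists: of 19 tested genes 13 were lower and 1 was higher, with a median of -0.60. SDP1, the lipase that starts the breakdown of oil, was at 177, 180.3 and 159.5 CPM in dry WT seeds and 216, 192 and 228 CPM in WT in water. In qko it was at 434, 454 and 457 CPM in dry seeds and 278, 269.6 and 247 CPM in water (log2 difference -1.05 ± 0.15, edgeR adjusted p = 1.66e-06). qko was above WT in both states, and the gap narrowed. The qko response of SDP1 was -0.76 on the log2 scale here and -0.03 under total-count scaling, and its difference from WT held under both.

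KAT2, the thiolase of fatty acid beta-oxidation, was at 1423 to 1534 and 1471 to 1606 CPM in WT and at 3511 to 3875 and 1557 to 2091 CPM in qko (log2 difference -1.01 ± 0.16, edgeR adjusted p = 8.85e-06). MFP2, the multifunctional protein of the same cycle, rose 1.89-fold in WT and was at 1461 to 1516 CPM in dry qko seeds and 1376, 1403 and 672 CPM in qko in water, replicate 7 being low (log2 difference -1.28 ± 0.30, edgeR adjusted p = 0.00156). ICL and MLS, the glyoxylate cycle enzymes, were lower too (log2 difference -0.71 ± 0.18, edgeR adjusted p = 0.00223 for ICL and -0.67 for MLS). In dry seeds 13 of the 19 genes were higher in qko than in WT, and in water 5 were higher and 4 lower. PMDH2, the higher member, was under 1 CPM in every library, and its call was lost under 7 alternatives.

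The largest difference among called loci within the limits for naming, which include a mean of at least 3 counts per library in every group, belonged to DIN10. This raffinose synthase family gene is induced by darkness and sugar starvation. It was at 0.143, 0.426 and 0.146 CPM in dry WT seeds, 10 counts over the 3 libraries, and at 56.4, 33.8 and 27.6 CPM in WT in water. In qko it was at 2.83, 1.92 and 2.14 CPM in dry seeds and 2.19, 1.38 and 0.625 CPM in water (log2 difference -8.03 ± 1.11, edgeR adjusted p = 1e-06). AGAL1, an alpha-galactosidase, was the other called gene among 8 of the raffinose and starvation list, and it fell 2.96-fold in qko to the level of WT (log2 difference -1.38 ± 0.21, edgeR adjusted p = 5.62e-06).

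Purple acid phosphatase and phosphate transport genes were also among the 10 lowest differences within the limits for naming. PAP10, a secreted phosphatase, was at 0.787, 0.426 and 0.801 CPM in dry WT seeds and 81.3, 77.3 and 57.1 CPM in WT in water. In qko it rose from 2.03, 3.23 and 2.76 to 18.4, 23 and 12.1 CPM (log2 difference -4.0 ± 0.46, edgeR adjusted p = 4.02e-08). PAP17, another of the family, rose 5.15-fold in WT from 3.86, 3.98 and 3.28 to 24.8, 17.63 and 15 CPM. In qko its levels were 25.2, 24.9 and 25.9 CPM in dry seeds and 9.65, 10.4 and 8.84 CPM in water (log2 difference -3.76 ± 0.55, edgeR adjusted p = 2.95e-06), a fall that was not called under total-count scaling (log2 -0.67, edgeR adjusted p = 0.0975). G3Pp1, a glycerol-3-phosphate transporter, was under 1 CPM in dry WT seeds and at 4.64 to 9.66 CPM in water, against 19.9 to 22.6 and 9.77 to 14.2 CPM in qko (log2 difference -4.64 ± 0.77, edgeR adjusted p = 1.88e-05). WRKY75, a regulator of phosphate uptake, was at 0 to 0.568 and 1.11 to 1.33 CPM in WT and at 12.7 to 13.6 and 4.98 to 7.63 CPM in qko (log2 difference -3.37 ± 0.55, edgeR adjusted p = 1.57e-05). AT2G16660, annotated as a major facilitator protein, rose 14.8-fold in WT and 1.54-fold in qko from a higher start (log2 difference -3.26 ± 0.23, edgeR adjusted p = 7.12e-13).

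Jasmonate genes were split, with 3 of 20 tested higher and 5 lower. JAZ1, a repressor of jasmonate signalling, rose 5.96-fold in WT, to 10.7, 12.7 and 9.61 CPM, and 2.07-fold in qko, from 29.7, 29.3 and 30.8 to 61.4, 62.3 and 61.9 CPM (log2 difference -1.53 ± 0.17, edgeR adjusted p = 3.81e-08). JAZ3, of the same family, fell in WT from 96.7, 87.5 and 97.3 to 32.9, 30.5 and 40.6 CPM and was at 67.7, 59.4 and 64.1 and 55.5, 53.9 and 52.4 CPM in qko (log2 difference 1.2 ± 0.17, edgeR adjusted p = 1.74e-06). LOX3, the other gene with a large higher value, was under 1 CPM in every library, and its call was lost under 5 alternatives. In water 13 of the 20 genes were higher in qko than in WT and 2 lower.

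Of 10 tested auxin genes 4 were lower and 1 was higher. TAR2, an enzyme of auxin synthesis from tryptophan, reached 9.06 to 12.7 CPM in WT and 2.81 to 4.16 CPM in qko in water (log2 difference -1.67 ± 0.40, edgeR adjusted p = 0.00156). ARF10, an auxin response factor that acts in the ABA responses of seeds, was the higher member (log2 difference 0.79 ± 0.20, edgeR adjusted p = 0.00321).

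Genes of glucosinolate metabolism itself were tested as separate lists. Of 8 tested aliphatic synthesis genes 1 was higher and 2 were lower, and another 12 members had too few counts to test. All 3 called genes, IPMI2, IMD3 and IIL1, belong to the isopropylmalate steps that leucine synthesis and methionine chain elongation have in common. IIL1 was at 125 to 129 and 109 to 116 CPM in WT and at 180.4 to 194 and 108 to 122.0 CPM in qko (log2 difference -0.51 ± 0.12, edgeR adjusted p = 0.00199). Of 18 indolic synthesis genes CYP81F3 alone was called, at 0.746, 0.493 and 1.06 CPM in WT in water and 14.9, 13.8 and 13.7 CPM in qko, with no more than 0.138 CPM in any dry library. Its call was lost under 8 alternatives, and CYP81F genes are near copies. Among 8 tested regulators 2 were higher, MYC2 and MYC3, which encode factors shared with jasmonate signalling (log2 difference 1.23 ± 0.22, edgeR adjusted p = 6.15e-05 for MYC2). The count was 1 without WT in water replicate 5 and without qko in water replicate 4.

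In glucosinolate breakdown and transport 4 of 12 tested genes were lower and none was higher, and the count was 2 without WT in water replicate 8 and without qko in water replicate 7. NIT2, a nitrilase, was at 131, 140.4 and 129.6 CPM in dry WT seeds and 2207, 2262 and 2165 CPM in dry qko seeds. In water it was at 40.7, 51 and 50.7 and 518, 448 and 453 CPM, so it stayed higher in qko while falling further (log2 difference -0.73 ± 0.21, edgeR adjusted p = 0.00995). NIT1, NIT2 and NIT3 are near copies. The transporter gene GTR1 lost its call under 13 alternatives. Of 5 tested genes of cyanide and thiocyanate metabolism 3 were lower and 1 was higher. AOX1A, the cyanide-insensitive oxidase of mitochondria, was higher in qko in both states, at 2.07 to 3.91 against 0.143 to 0.364 CPM in dry seeds and 29.1 to 37 against 10.3 to 10.9 CPM in water (log2 difference -1.77 ± 0.56, edgeR adjusted p = 0.0162). The sulfurtransferase genes STR1 and STR2 had lower responses (log2 difference -0.48 ± 0.10, edgeR adjusted p = 0.000513 for STR1).

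Storage protein transcripts fell in both genotypes at all 14 tested genes (12 in WT and 14 in qko under total-count scaling), and 2 had a lower response in qko. CRU2, a cruciferin, went from 13198, 11633 and 12481 to 3280.2, 3236 and 3355 CPM in WT and from 1146, 816 and 1004 to 94.2, 94.4 and 129.9 CPM in qko (log2 difference -1.3 ± 0.25, edgeR adjusted p = 0.000122). The call of CRA1 was lost under 8 alternatives. The number of called genes ranged from 1, without any of 8 libraries in turn, to 5 without replicate 7 of qko in water and with the replicate block. Among 13 genes of late embryogenesis abundant (LEA) proteins, which protect dry cells, ECP63 alone was called (log2 difference -0.68 ± 0.26, edgeR adjusted p = 0.0443), and 0 were called when 1 of 9 libraries was left out. The responses of EM1 and EM6 were not called as different (log2 difference -0.16 ± 0.36, edgeR adjusted p = 0.791 for EM1).

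Some loci fell under 3 counts per library in one of the groups, so only their levels are given. The selenium binding protein locus AT4G31360 was 0 in dry qko seeds, 3.03, 3.70 and 3.36 CPM in WT in water and 6.18, 6.15 and 8.21 CPM in qko in water. TAF4B, a subunit of a general transcription factor, was under 1 CPM in dry seeds, at 3.28, 2.79 and 3.49 CPM in WT in water and at 21.2, 21.7 and 17.5 CPM in qko in water. AT1G61320, an F-box related leucine rich repeat locus, was 0 in all WT libraries in water and at 8.63, 7.62 and 7.31 and 5.83, 4.85 and 4.95 CPM in qko. AT3G06640, a kinase with a PAS domain, began at 1.07 to 1.72 CPM in dry WT seeds and 0 to 0.145 CPM in dry qko seeds and met WT in water. AT3G15115 did the same at a lower level.

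On the lower side, sks13, a relative of the wall protein SKU5, was at 11.3, 23.59 and 8.74 CPM in dry WT seeds and 54.5, 126 and 196 CPM in dry qko seeds and fell under 1 CPM in all 6 libraries in water. The kinase locus AT5G18910 had the same course, from 0.510 to 0.995 and 3.41 to 8.97 CPM. CYP94B3, which oxidises jasmonoyl-isoleucine, was at 6.02, 6.80 and 5.86 CPM in dry qko seeds and under 1 CPM in the other 9 libraries. CYSD2, a cysteine synthase family gene, was at 1.95, 2.1 and 1.45 CPM in WT in water, with 0.0728 to 0.143 CPM in dry WT seeds, and at 7.76, 5.91 and 7.59 and 3.95, 5.61 and 2.68 CPM in qko. All 4 loci had their highest group mean in dry qko seeds.

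Genes that changed in opposite directions were named by the smallest p, within the same limits as the highest and lowest differences. Higher in WT and lower in qko were AT3G55720, NPC2, PAP12, GRH1 and AAP1. AT3G55720, annotated as a DUF620 protein, rose from 9.87, 11.7 and 9.54 to 13.4, 14.4 and 15.3 CPM in WT and fell from 71.9, 84.4 and 62.3 to 11.2, 10.6 and 10.2 CPM in qko (log2 difference -3.24 ± 0.16, edgeR adjusted p = 4.29e-17). NPC2, a phospholipase C that cuts membrane lipids, rose 1.70-fold in WT and fell 3.87-fold in qko (log2 difference -2.72 ± 0.20, edgeR adjusted p = 2.95e-12). AAP1, the amino acid permease that loads the embryo, rose to 222, 197 and 218 CPM in WT and fell to 117, 118 and 90.4 CPM in qko (log2 difference -1.63 ± 0.14, edgeR adjusted p = 4.54e-11), and GRH1, an auxin receptor of the TIR1 family, had the same pattern (log2 difference -1.66 ± 0.14, edgeR adjusted p = 4.54e-11). Directions of these 4 held under total-count scaling. The fall of PAP12 in qko did not pass there (log2 -0.23, edgeR adjusted p = 0.144).

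Lower in WT and higher in qko were WRKY11, STZ, RDUF1, EXLA1 and NAC102. EXLA1, an expansin-like gene, went from 15.5, 15.3 and 15 to 6.26, 7.52 and 7.66 CPM in WT and from 13.8, 10.5 and 15.1 to 49.9, 45.9 and 54.9 CPM in qko (log2 difference 3.03 ± 0.23, edgeR adjusted p = 2.95e-12). NAC102, which is needed for germination under low oxygen, was at 33.2 to 34.6 CPM in WT in water and 115 to 156 CPM in qko in water (log2 difference 2.51 ± 0.19, edgeR adjusted p = 7.02e-12). RDUF1, a ubiquitin ligase of ABA responses, was at 11.6 to 12.9 and 43.4 to 46.0 CPM (log2 difference 1.44 ± 0.10, edgeR adjusted p = 8.72e-13). EXLA1 and STZ fell in WT under total-count scaling as well. WRKY11 did not (log2 0.29, edgeR adjusted p = 0.0364), and the falls of RDUF1 and NAC102 in WT were not called there (log2 0.01 and -0.13).

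**Figure D5:**
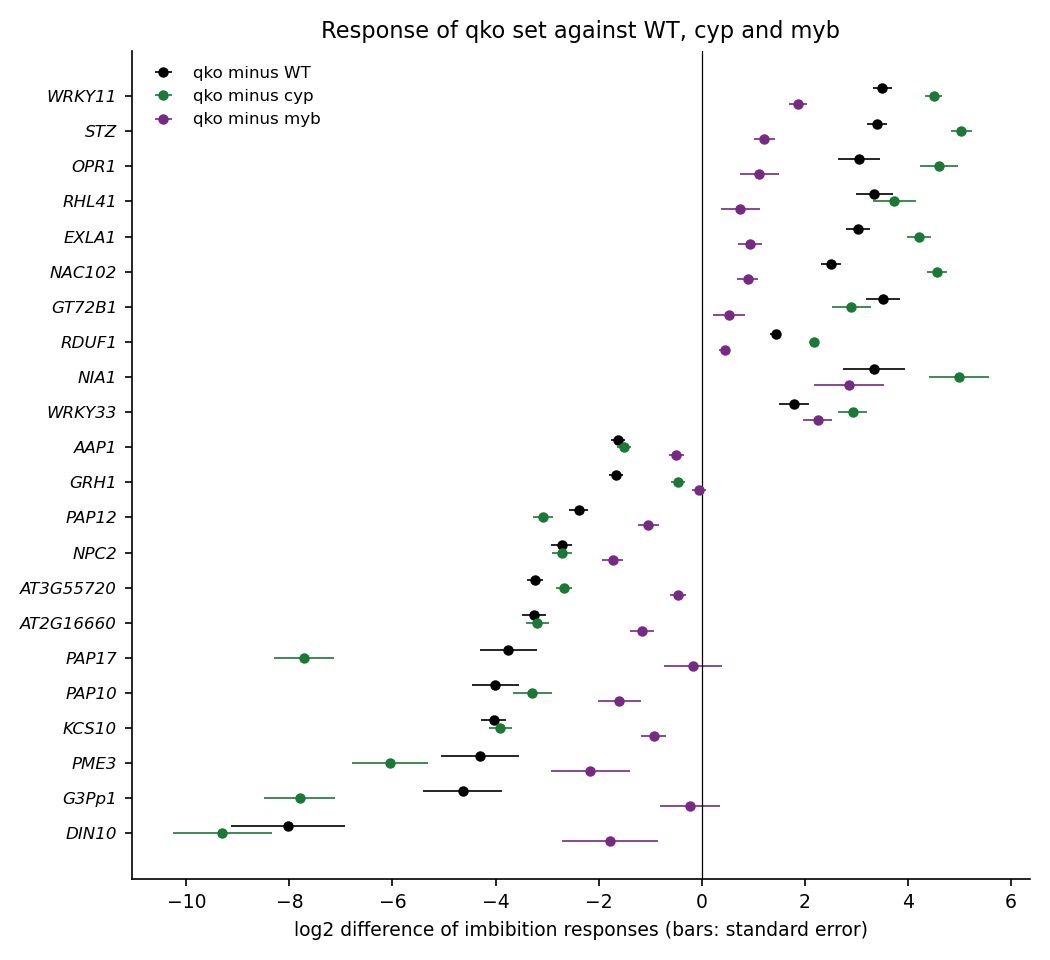
Log2 difference of imbibition responses for 22 genes: qko minus WT (black), qko minus cyp (green) and qko minus myb (purple), with standard errors as bars. Differences from myb lie nearer to 0 than those from WT for all genes shown but WRKY33.

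Whether a difference sets qko apart from the mutants of either gene pair needs its own test, and all of these tests share the qko libraries. Of 18066 tested loci, the qko response differed from that of cyp at 9932 (55.0%), 5695 higher and 4237 lower. It differed from that of myb at 633 (3.5%), 366 higher (2.03%) and 267 lower (1.48%). The cyp response itself differed from that of WT at 6354 loci, 2227 higher and 4127 lower, and the myb response at 2083, 973 higher and 1110 lower. A difference between qko and cyp can thus come from either mutant. The lean to higher loci against cyp depended on the scaling. It was 5197 higher and 4694 lower with RLE scaling, and 5240 and 4851 with DESeq2. The counts of cyp against WT were taken with TMM scaling only. Dry myb seeds were represented by 2 libraries. Of the 2553 loci with a higher response than WT, 2188 (85.7%) were also higher than cyp, 15 were lower and 350 were not called. Of the 2460 lower loci, 1832 (74.5%) were also lower than cyp, 114 were higher and 514 not called. Against myb the counts were 295 of 2553 (11.6%) in the same direction and 2 in the opposite one, and 213 of 2460 (8.66%) and 2. A difference from myb that was not called does not show that the responses were alike.

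WRKY11 responded more in qko than in either mutant. Its mean level rose from 6.31 ± 0.261 (SD, n = 2) to 14.3 ± 1.3 CPM (SD, n = 3) in myb and went from 10.9 ± 0.575 to 3.98 ± 0.537 CPM (SD, n = 3) in cyp, and the qko response was higher by 1.87 than that of myb (edgeR adjusted p = 6.89e-08) and by 4.50 than that of cyp (edgeR adjusted p = 1.53e-20). STZ also differed from both (1.22 from myb, edgeR adjusted p = 0.000253, and 5.03 from cyp). WRKY33 was at 19.6 ± 1.57 CPM in myb in water and 7.58 ± 2.26 CPM in cyp in water, and its qko response was higher by 2.25 (edgeR adjusted p = 8.35e-06) and 2.93. NPC2 had a lower response than both, at -1.73 against myb (edgeR adjusted p = 3.77e-06) and -2.71 against cyp. OPR1 was higher than cyp (4.61 ± 0.38) and stood at 1.12 ± 0.38 against myb (edgeR adjusted p = 0.0917). KCS10 stood at -3.91 against cyp and -0.93 ± 0.24 against myb (edgeR adjusted p = 0.0198). By list, the count against myb was highest for lipid mobilisation (6 of 19 lower), sulfate (5 lower and 1 higher of 23) and gibberellin (5 of 26 lower), and it was 0 for the clock, ribosomal and sulfur deficiency lists. Against cyp the ribosomal list had 22 of 23 lower, the heat shock list 15 of 15 higher and the clock list 11 of 15 higher. Over all 18066 tested loci 4237 were lower than cyp and 5695 higher, and 4694 and 5197 with RLE scaling.

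Seeds imbibed in KNO3 or KSCN give levels of the same genes in libraries whose levels do not enter the water difference. They do enter its p, since all 45 libraries shared the estimate of the spread. These qko groups carry the same replicate numbers 4, 6 and 7 as in water, and replicate 7 stood apart in each. Whether they are separate seed material is not known. qko differed from WT at 49.5% of loci in KNO3 and 52.6% in KSCN. OPR1 was higher in qko by 3.96 in KNO3 and 4.16 in KSCN on the log2 scale, beside 3.96 in water. STZ was higher by 2.43 and 3.04, beside 2.78. SERAT2;1 was higher by 3.45 and 3.95, beside 3.87. The lower genes KCS10 (-3.10 in KNO3, -2.67 in KSCN and -3.04 in water), PME3 (-4.30, -3.41 and -3.96) and EXPA3 (-2.54, -2.51 and -2.71) were lower in all 3. NIA1, which nitrate induces, stood at -1.2 in KNO3, -0.92 in KSCN and -0.72 in water. No difference between these treatments was tested here.

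Short motifs in the 250 bases before the gene start, read for 17959 tested loci from RefSeq TAIR10.1 by locus name, were about as frequent in the differing loci as in all. The core of the ABA response element, ACGTG, was in 24.7% of promoters with a higher response, 24.8% with a lower one and 23.7% of all, on either strand; it overlaps the G-box CACGTG, found in 8.05%, 9.07% and 7.81%. The evening element AAATATCT was in 5.14%, 4.68% and 4.74%, and the heat shock motif GAANNTTC in 9.19%, 8.5% and 9.25%. The ribosomal protein motifs AAACCCTA (3.06%, 3.86% and 3.9%) and TGGGCC or TGGGCT (23.4%, 24.2% and 23.9%) and the seed motif CATGCA (7.26%, 7.16% and 7.28%) showed the same. These are descriptions of letters in a window and carry no statement about a factor.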

How the data were processed

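Whole-seed RNA was read in pairs of 100 bases on DNBseq, per the labels. The deposited table holds estimated counts per transcript (48268 transcripts, 45 libraries), made by the authors with Salmon per the submitters' processing notes; neither version nor build is given in the sources used here, so no coordinates are printed. Library totals were 18097331 to 22910834. Estimated counts were summed per locus and rounded (27587 loci, 27392 of them with a name in RefSeq TAIR10.1, used for names and for promoter motifs).

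A filter on low counts per group (at least 10 in a group, 15 in total) kept 18066 loci and dropped 9521. They were fitted with edgeR 4.0.16 in R 4.3.3: TMM scaling, 1 coefficient for each of 16 groups over all 45 libraries, and quasi-likelihood F tests with Benjamini-Hochberg adjustment over all tested loci, called at adjusted p under 0.05. CPM are scaled by TMM, and errors after log2 differences are SE from the F statistic. The method was tested on simulated data. A group is low where its mean is under 3 counts per library, a limit that covers counting error only. Fitted log2 differences of loci with a low group are not printed, apart from those of the targeted genes.

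The comparison, members and 26 gene lists (445 genes, 394 tested) were chosen with earlier results of these data known. Genes named are the 10 highest and 10 lowest called differences, 5 each way with a low group, 5 each way with opposite responses, and per list up to 3 called genes. The highest, lowest and opposite sets took only loci with no low group and a highest group mean of at least 5 CPM. These loci also had to be called without replicate 7 of qko in water. Loci with a low group needed 5 CPM in the highest group too, and list genes 1 CPM. Other list members named were chosen after their values were seen. Of the 101 called genes the rule gave, some are counted in their list without being named, and 1 is not reported here. Alternatives were DESeq2 1.42.0, RLE and total-count scaling, no filter on low counts, a fit of the compared groups only, a replicate block, and leaving out each of the 12 libraries.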

Additional observations from a re-analysis of the deposited data

Results flagged for a closer look

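The difference between qko and WT in their response to the same treatment was itself tested, and 5013 loci passed. The same test found 9932 loci between qko and cyp and 633 between qko and myb, where dry myb seeds had 2 libraries.

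The 10 genes named for opposite responses were singled out because qko and WT moved in opposite directions and the difference passed the test. Higher in qko were WRKY11 (log2 difference 3.506), STZ (3.402), EXLA1 (3.033), NAC102 (2.512) and RDUF1 (1.436). Lower in qko were AT3G55720 (-3.236), NPC2 (-2.717), PAP12 (-2.389), GRH1 (-1.661) and AAP1 (-1.632). Under total-count scaling the WT response of WRKY11 turned to 0.29, and that of RDUF1 (0.01) and NAC102 (-0.13) and the qko response of PAP12 (-0.23) were not called, while all 10 differences passed.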

How the results depend on the processing

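The count of 5013 differing loci kept within 1.5 times under all 18 alternatives: 5242 with DESeq2, 5012 with RLE scaling, 4912 with total-count scaling (2384 higher and 2528 lower), 4537 with no filter on low counts, 4981 with only the compared groups, and 4208 to 4932 when a library was left out. With the replicate number as a block it was 6298. The labels share numbers between dry and imbibed seeds. Over all tested loci the residual correlations of same-numbered libraries were small (0.0367, 0.0108 and -0.104 in WT and 0.0561, -0.0724 and -0.019 in qko). The numbers were therefore not taken as pairs, which does not show that they mark separate seeds. Replicate 6 of qko had the lowest summed endosperm markers of its group in both states (17590 CPM in dry seeds and 5318 CPM in water). The count against myb (633) was the least stable, at 957 with DESeq2, 214 with only the compared groups, 312 with the replicate block and 258 to 890 when a library was left out. The count between qko and WT in KNO3 (8947) fell to 5562 with only the compared groups. Of the 101 called genes given by the rule, 85 kept their call under all 18 alternatives and 16 lost it under at least 1. Genes of the highest, lowest and opposite sets were picked only if called without replicate 7 of qko in water. For them that alternative was met by selection, so the 85 is not an independent measure of it. List counts moved by more than 1.5 times for 9 lists: storage proteins (1 to 5), LEA proteins (0 to 1), ABA synthesis (1 to 3), ribosome biogenesis (3 to 10), DNA replication (1 to 2), sulfur deficiency (3 to 8), indolic synthesis (0 to 1), glucosinolate regulators (1 to 2) and glucosinolate breakdown and transport (2 to 7). The highest count of ribosome biogenesis came with the replicate block. Those of sulfur deficiency and breakdown came both with the block and with only the compared groups. The targeted genes lie near the limit of detection and changed sign without being called: over the libraries left out in turn CYP79B2 ranged from -3.471 to 1.416 (-2.767 with all, the positive value without qko dry replicate 6) and CYP79B3 from -0.8152 to 0.6256 (0.09549 with all, and -0.09206, -0.1269 and -0.09981 without WT in water replicate 9, qko dry replicate 4 and qko in water replicate 7). The causes were not tested. At this depth 3 counts correspond to 0.123 to 0.219 CPM, and differences under that level were not detectable.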

Other observations

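Further gene groups were listed after the values had been seen, so their counts describe these libraries and support nothing. Of 16 tested stress transcription factor genes 10 had a higher response in qko and 1 a lower one. WRKY6, a regulator of senescence and phosphate transport, was at 15.5, 13.3 and 18.16 CPM in WT in water and 96.8, 100.5 and 82.2 CPM in qko in water (log2 difference 2.36 ± 0.25, edgeR adjusted p = 7.68e-09). ERF5, an ethylene response factor, was at 1.43 to 1.71 CPM in dry WT seeds and 0.128 to 0.290 CPM in WT in water, against 1.74 to 2.0 and 1.5 to 2.19 CPM in qko (log2 difference 2.6 ± 0.49, edgeR adjusted p = 0.000108). NAC032, a stress factor of the NAC family, fell in WT from 189, 176 and 204 to 34.1, 37.2 and 39 CPM and was at 63, 47.7 and 59.5 and 39.5, 33.7 and 61.6 CPM in qko (log2 difference 2.03 ± 0.25, edgeR adjusted p = 1.46e-07). WRKY18 was the lower member (log2 difference -0.68 ± 0.19, edgeR adjusted p = 0.0068).

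Of 17 tested phosphate starvation genes 10 had a lower response in qko and none a higher one, with a median of -0.67. In dry seeds 12 were higher in qko than in WT and 1 lower. SPX1, a phosphate sensor that restrains the starvation response, was at 6.94, 8.31 and 8.74 CPM in dry WT seeds and 216, 232 and 224 CPM in dry qko seeds. In water it was at 4.60, 5.14 and 5.57 and 46.3, 42.4 and 92.7 CPM, with replicate 7 the highest of qko (log2 difference -1.24 ± 0.36, edgeR adjusted p = 0.00941). PLDP2, a phospholipase D of membrane lipid exchange, was at 52.7 to 57.4 CPM in dry qko seeds and 17.7 to 24.4 CPM in water (log2 difference -0.88 ± 0.21, edgeR adjusted p = 0.00179). Of 13 tested cuticle and wax genes 4 were lower and none was higher (1 without replicate 7 of qko in water), with a median of -1.38 as fitted and -0.925 with low groups raised to 3 counts per library. The 4 were FAR1, KCS10, CER3 and HTH, and the call of CER3 was lost under 6 alternatives.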
